A study of Mus musculus with 20 samples.

Results

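The upper villus fraction of mouse ileum (V1) was set against the crypt fraction (C1), on the 8 of the 20 arrays of the series whose labels give those fractions, 4 per fraction. V1 holds the epithelium of the upper villus and C1 that of the crypt, both taken from wild type C57BL/6J male mice of 4 months by repeated gentle shaking of opened ileum in a chelating buffer, which loosens cells from the villus tip downwards. V0 (the tip), V2 and V3 are the other fractions of the same axis, likewise with 4 arrays each. According to the series description 4 mice were used. No source used here ties an array to a mouse, so that fractions were compared unpaired and p-values measure only the spread between arrays. Each array carried 655 probes for mature miRNAs and minor (star) strands, and 346 of them were tested, namely those whose detection p stayed at or under 0.01 on the 4 arrays of V1, of C1 or of both. Of these, 325 were detected on all 4 V1 arrays, 207 on all 4 C1 arrays and 186 on all 8. The fractions are bulk cell suspensions, in which fewer cells of a type and less of a miRNA per cell cannot be told apart.

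The intestinal epithelium is renewed from stem cells at the crypt base, whose daughters divide in the crypt, leave the cell cycle and differentiate as they climb the villus, and are shed at its tip. A miRNA is cut from a hairpin transcript as a short duplex, and 1 strand is usually loaded into the silencing complex, where its seed (bases 2 to 8) pairs with target mRNAs. The other strand, marked with a star on this array, is usually rarer. The miR-192, miR-194 and miR-215 group is abundant in intestinal epithelium, the miR-200 family keeps cells epithelial by repressing Zeb1 and Zeb2, and the let-7 family represses growth genes such as Hmga2.

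The mature strands on which the comparison turns are shown first, for those above C1 and then for those below it, from RefSeq (GRCm38.p6), 5′ to 3′, with the seed in capitals. miR-22 lies at chr11:75463772-75463793 (plus strand) in the non-coding gene Mir22hg, miR-31 at chr4:88910614-88910635 and miR-31* at chr4:88910577-88910599 (both minus strand) in Gm49890, and miR-28 at chr16:24827868-24827889 (plus strand) in Lpp. miR-29b has loci on chromosomes 1 and 6, and miR-128 has loci on chromosomes 1 and 9, in R3hdm1 and Arpp21. miR-98 lies at chrX:151913229-151913250 (plus strand) in Huwe1 and shares its seed with let-7g and let-7b, which are shown for that reason. The strands of miR-770, at chr12:109563710-109563731 and chr12:109563744-109563765 (plus strand) in the non-coding gene Meg3, are both shown because they stood on opposite sides of the comparison. On the C1 side, miR-763 lies at chr10:120448052-120448073 (minus strand) in Hmga2, miR-758 at chr12:109712858-109712876 (plus strand), miR-707 at chr7:44849705-44849725 (plus strand) in Akt1s1, miR-346 at chr14:34894624-34894646 (plus strand) in Grid1 and miR-20a* at chr14:115044219-115044240 (plus strand). miR-378*, miR-875-3p, miR-195, miR-30b, miR-466g and miR-466f-5p are named only.
miR-22: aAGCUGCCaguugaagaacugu
miR-29b: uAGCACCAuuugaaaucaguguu
miR-31: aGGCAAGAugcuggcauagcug
miR-31*: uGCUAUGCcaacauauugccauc
miR-28: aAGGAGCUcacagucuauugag
miR-128: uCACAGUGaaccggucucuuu
miR-98: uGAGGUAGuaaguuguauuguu
let-7g: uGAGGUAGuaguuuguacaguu
let-7b: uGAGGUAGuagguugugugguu
miR-770-5p: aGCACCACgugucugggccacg
miR-770-3p: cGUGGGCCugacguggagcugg
miR-763: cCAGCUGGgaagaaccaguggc
miR-758: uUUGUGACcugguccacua
miR-707: cAGUCAUGccgcuugccuacg
miR-346: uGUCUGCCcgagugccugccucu
miR-20a*: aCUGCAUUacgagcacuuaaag

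The 2 fractions differed in how much miRNA signal the arrays held. Before normalization, 388 to 481 probes were detected on the V1 arrays and 285 to 372 on the C1 arrays, without overlap, and the median signal was 829 to 1273 units in V1 and 319 to 841 units in C1. V1 and C1 shared 1 slide, slide 2, with 2 V1 arrays and 1 C1 array on it. C1 replicate 4 stood apart from the rest. It had the fewest detected probes of the 8 (285), lay alone on slide 4, and its mean Spearman correlation with the other C1 arrays over the 655 probes was 0.470, where each of the other 3 C1 arrays had 0.637 to 0.677. Those 3 arrays had a mean of 0.683 to 0.701 with the V1 arrays. Their means within C1 include the pair with C1 replicate 4, so the 2 sets of means do not compare like with like. Single pairs had 0.435 to 0.784 within C1 and 0.248 to 0.750 between V1 and C1. Several miRNAs that were close to the top of the scale on the other 7 arrays (the highest log2 normalized signal of any probe was 15.91) were far lower on C1 replicate 4. The log2 normalized signal of miR-21, an abundant miRNA of growing and inflamed tissue, was 15.90, 15.90, 15.80 and 15.90 on the V1 arrays, against 15.90, 15.90, 15.78 and 8.85 on the C1 arrays. Results are therefore given with all 8 arrays and without C1 replicate 4. The part of depth and slide in the differences was not tested.

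The epithelial miRNAs were present in both fractions. miR-192, miR-194 and miR-215 were detected on all 8 arrays, and none of the 3 passed the test. The log2 normalized signal of miR-192 was 15.44, 15.40, 15.27 and 15.50 in V1, against 15.42, 15.52, 15.36 and 15.64 in C1. miR-194 had a log2 difference (V1 minus C1, here and below) of 0.11 and miR-215 one of 0.82, with C1 replicate 4 at 13.24 for miR-215 where the other 7 arrays had 15.27 to 15.91. The summed normalized signal of the 3 probes was 120677 to 137613 units in V1 and 96124 to 143582 units in C1.

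2 miRNAs rose in V1 and none fell, at a limma adjusted p of at most 0.05 and a difference of at least 2-fold (0.578% of the 346 probes called). Both were above every C1 array on every V1 array. miR-22, a conserved miRNA known from heart muscle and blood cells, had a log2 normalized signal of 14.53, 14.51, 14.56 and 14.51 on the V1 arrays, against 11.47, 10.94, 10.79 and 10.83 on the C1 arrays. The V1 arrays lay within a narrow band and C1 replicate 1 was the highest of C1. V1 exceeded C1 by 3.52 on the log2 scale (SE 0.48, limma adjusted p = 0.000265), and by 3.46 without C1 replicate 4 (limma adjusted p = 0.00106). miR-378*, the minor strand of a hairpin inside the metabolic regulator gene Ppargc1b, had 12.69, 12.31, 13.88 and 13.36 in V1, against 10.23, 10.42, 9.45 and 9.90 in C1, where 2 of the 4 arrays detected it. Its log2 difference was 3.06 (SE 0.63, limma adjusted p = 0.0206). Without C1 replicate 4 the difference was 3.03, with a limma adjusted p of 0.0662, so that miR-378* no longer passed and miR-22 alone did. miR-378* was also lost without V1 replicate 3, V1 replicate 4 or C1 replicate 3 (limma adjusted p = 0.0886, 0.0937 and 0.0670, in that order), at differences of 2.79, 2.96 and 2.87.

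The partner strands of these 2 hairpins did not pass. miR-22* had 10.92, 11.45, 11.63 and 11.32 in V1, against 8.87, 12.17, 8.86 and 9.39 in C1, and C1 replicate 2 lay above every V1 array (log2 difference 1.51, limma adjusted p = 0.214). The probe named miR-378, the strand usually taken as the mature one, had 14.44, 14.56, 14.95 and 15.16 in V1, against 14.71, 14.73, 14.48 and 9.77 in C1. Its log2 difference of 1.36 was 0.14 without C1 replicate 4, where the arrays of both fractions lay together.

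**Figure D1:**
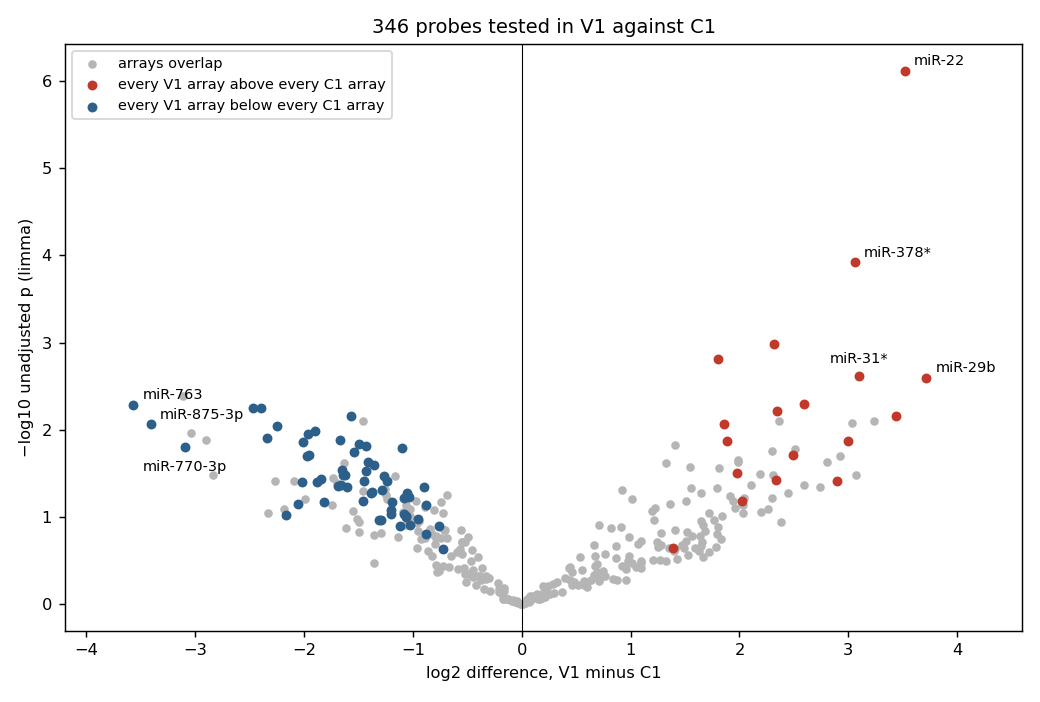
Log2 difference of V1 minus C1 (horizontal axis) against −log10 of the unadjusted limma p (vertical axis) for the 346 tested probes, red where every V1 array was above every C1 array and blue where every V1 array was below. miR-22 stands apart at a difference of 3.52, followed by miR-378* at 3.06, and the blue points are more numerous than the red (59 and 18).

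At an unadjusted p under 0.05, limma gave 85 probes, 24.6% of those tested, 38 higher (11.0%) and 47 lower (13.6%) in V1, and the smallest adjusted p among probes not called was 0.120. Without C1 replicate 4 the unadjusted count was 44, 23 higher and 21 lower. With each array's number of detected probes in the model, which itself separates V1 from C1, it was 13, 9 higher and 4 lower. For 77 probes (22.3%) the V1 and C1 arrays were fully separated. For 18 of them every V1 array was above every C1 array (5.20%), with a median log2 difference of 2.42 and a range of 1.39 to 3.72. For 59 every V1 array was below (17.1%), with a median of -1.45 and a range of -3.57 to -0.72. Since probes entered through detection in these same fractions, which favours separated arrays, the shares are no test. Of the 18, 16 kept every V1 array above C1 in the signal before normalization, whereas of the 59, 4 kept every V1 array below and 38 had a higher mean in V1. In that table the median over the 346 probes was 1.05, against -0.01 after normalization. Of 77 named probes that were tested, 61 had a difference over 1.5 times smaller in size with the number of detected probes in the model, among them miR-28 (0.64), miR-31 (0.15) and miR-128 (1.34), while miR-22 had 2.89.

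Among the 18 were both strands of miR-31, a miRNA of epithelia. Of the 12 highest, 3 were detected on all 4 C1 arrays (miR-22, miR-28 and miR-128), 8 on 1 to 3 of them and 1 on none. The log2 normalized signal of miR-31 was 14.98, 15.00, 14.32 and 14.80 in V1, against 13.27, 13.49, 11.76 and 8.99 in C1 (log2 difference 2.89, SE 1.30, limma adjusted p = 0.191). That of miR-31* was 13.47, 13.44, 12.04 and 13.29 in V1, against 9.29, 9.50, 10.16 and 10.89 in C1 (log2 difference 3.10, SE 0.88, limma adjusted p = 0.146). Neither strand passed over all probes, although the V1 arrays lay above the C1 arrays for both. C1 replicate 4 was the lowest C1 array for miR-31 and the highest for miR-31*, and without it the differences were 1.93 and 3.41.

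miR-29b, of a family that represses collagen mRNAs, had the highest log2 difference of the tested probes, 3.72 (SE 1.06, limma adjusted p = 0.146). Its log2 normalized signal was 13.80, 13.71, 12.10 and 13.42 in V1, against 9.06, 8.80, 11.35 and 8.94 in C1, and 1 C1 array, replicate 3, detected it. V1 replicate 3 and C1 replicate 3, both on slide 2, were the closest of the 2 fractions. miR-28, from an intron of Lpp, had 14.34, 14.34, 13.66 and 14.37 in V1, against 12.34, 10.26, 10.99 and 11.12 in C1 (log2 difference 3.0, SE 1.09, limma adjusted p = 0.159). miR-128, known as a brain-enriched miRNA, had 13.27, 13.27, 11.68 and 12.47 in V1, against 10.25, 10.16, 9.49 and 10.42 in C1 (log2 difference 2.59, SE 0.81, limma adjusted p = 0.148). For both the fractions were separated by more than a log2 unit between the nearest arrays, and without C1 replicate 4 the differences were 2.98 and 2.71. When only the V1 and C1 arrays were fitted, miR-29b, miR-31*, miR-28, miR-128 and miR-466g were called as well (limma adjusted p = 0.0197 for each).

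For 3 further miRNAs of the 18 the difference leaned on C1 replicate 4. miR-98, a let-7 family member, had 15.09, 15.14, 14.41 and 14.82 in V1, against 13.88, 14.39, 12.15 and 9.70 in C1, a log2 difference of 2.34, or 1.39 without that array. With slide as a fixed block it was 3.43 and was called (limma adjusted p = 0.0141). In every such fit V1 and C1 meet directly on slide 2 only. C1 replicate 4, alone on its slide, adds nothing to such a difference. miR-425, from the gene Dalrd3, had 14.73, 14.87, 14.85 and 14.87 in V1, against 13.66, 14.05, 14.51 and 9.0 in C1, a log2 difference of 2.03, or 0.76 without it. miR-30b had 14.37, 14.44, 14.59 and 14.73 in V1, against 13.70, 13.06, 13.88 and 9.60 in C1, a log2 difference of 1.98, or 0.99 without it. In all 3 the other C1 arrays were still below every V1 array. miR-151-5p, from an intron of the focal adhesion kinase gene Ptk2, followed the same pattern, with a log2 difference of 1.39 that was 0.40 without it.

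4 of the 18 were detected on no C1 array, so that only a lower bound of the fold can be given, the V1 mean against the lowest detected signal of the C1 arrays. miR-466g, of the repeat-like cluster in the gene Sfmbt2, had a log2 normalized signal of 11.87, 11.09, 12.88 and 11.35 in V1 and was at least 4.56-fold higher than in C1 (limma adjusted p = 0.165). miR-665, of the imprinted Dlk1-Dio3 region, had 10.82, 9.54, 11.82 and 11.20 in V1 and was at least 2.35-fold higher (limma adjusted p = 0.134). miR-669f, also of the Sfmbt2 cluster, was at least 2.32-fold higher (limma adjusted p = 0.148), and miR-331-3p, with a log2 signal of 10.16, 10.80, 11.99 and 10.72 in V1, at least 2.48-fold (limma adjusted p = 0.159). V1 replicate 3 was the highest V1 array for all 4. 2 more of the 18 carry only the name of a sequenced candidate in place of a miRNA name.

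**Figure D2:**
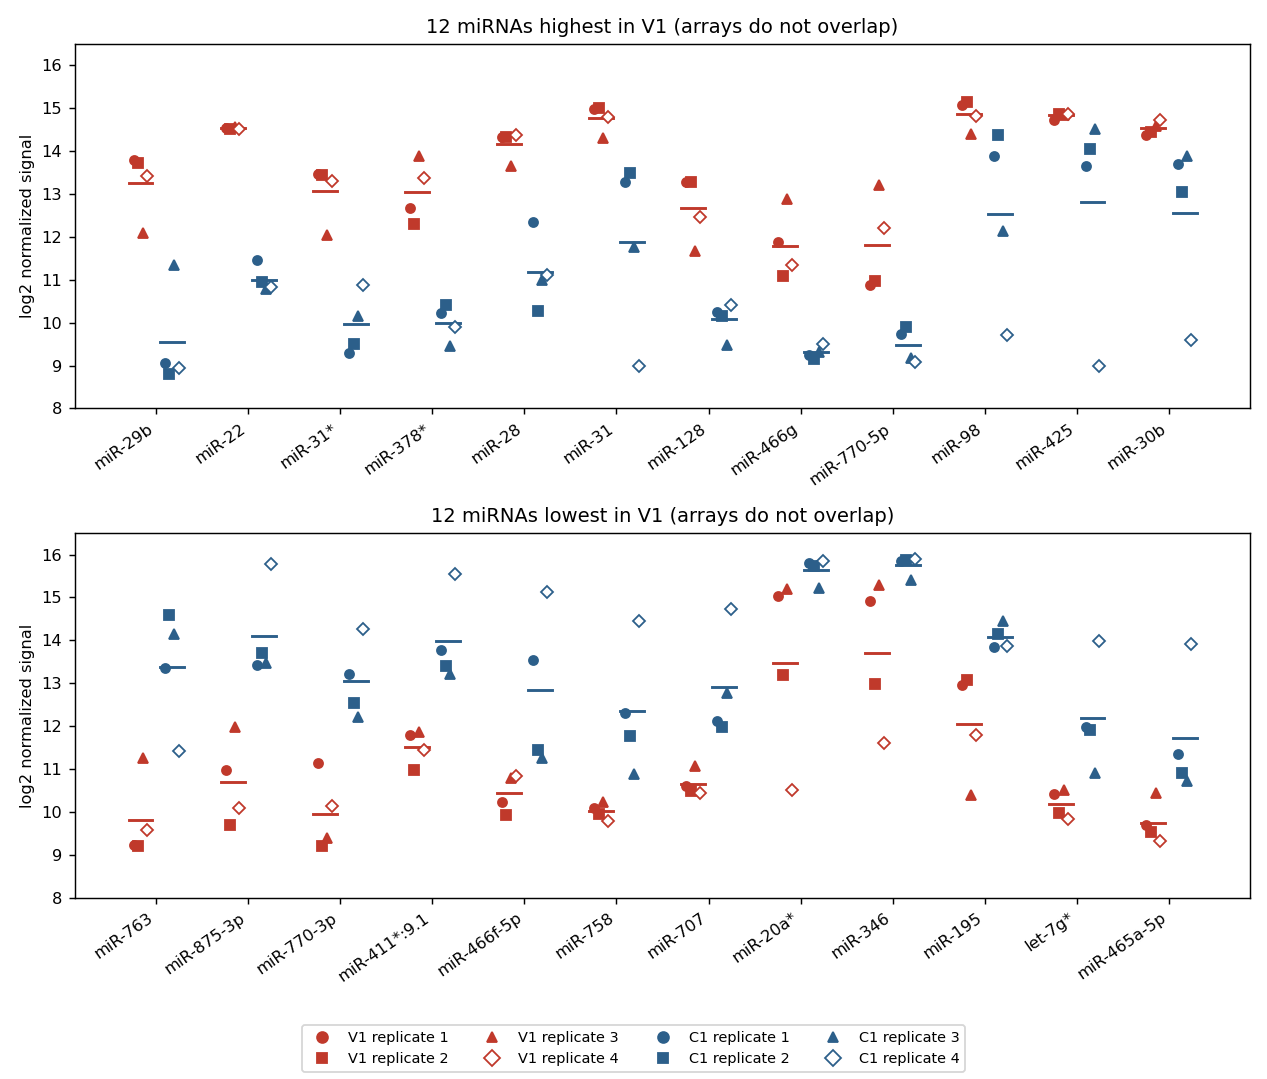
Log2 normalized signal (vertical axis) on each V1 array (red) and each C1 array (blue) for the 12 miRNAs with the highest and the 12 with the lowest difference among those whose arrays did not overlap, where marker shapes give the replicate, open diamonds are replicate 4, and bars are means over 4 arrays. C1 replicate 4 is the lowest C1 array for 5 of the 12 miRNAs in the upper panel and the highest for 10 of the 12 in the lower one.

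No miRNA fell in V1 past the threshold, and the lowest differences are given with that limit. miR-763, from an intron of the growth gene Hmga2, had a log2 normalized signal of 9.22, 9.20, 11.26 and 9.57 in V1, against 13.36, 14.59, 14.15 and 11.42 in C1. Its log2 difference was -3.57 (SE 1.13, limma adjusted p = 0.148), with C1 replicate 4 the nearest to V1, and it was -4.22 without that array. It was detected on 2 V1 arrays and on all 4 C1 arrays. miR-875-3p had 10.98, 9.70, 11.97 and 10.09 in V1, against 13.42, 13.71, 13.47 and 15.78 in C1 (log2 difference -3.41, SE 1.16, limma adjusted p = 0.148). miR-770-3p, detected on 2 V1 arrays, had 11.13, 9.21, 9.38 and 10.13 in V1, against 13.21, 12.53, 12.21 and 14.26 in C1 (log2 difference -3.09, SE 1.16, limma adjusted p = 0.159). C1 replicate 4 was the highest C1 array for miR-875-3p and miR-770-3p, and without it their differences were -2.85 and -2.69. The gap between the nearest arrays of the fractions was smallest for miR-763. With only the V1 and C1 arrays fitted, these 3 were called (limma adjusted p = 0.0475, 0.0368 and 0.0295, in that order).

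miR-195, of the miR-15 and miR-16 family that represses cyclin mRNAs, had 12.97, 13.08, 10.40 and 11.80 in V1, against 13.85, 14.15, 14.44 and 13.88 in C1. Its C1 arrays lay close together, and its log2 difference of -2.02 (SE 0.91, limma adjusted p = 0.191) was -2.09 without C1 replicate 4. miR-346, from the glutamate receptor gene Grid1, had 14.91, 12.99, 15.30 and 11.60 in V1, against 15.85, 15.87, 15.40 and 15.90 in C1 (log2 difference -2.05). miR-20a*, the minor strand of a member of the proliferation-associated miR-17 to miR-92 cluster, had 15.03, 13.19, 15.19 and 10.52 in V1, against 15.80, 15.74, 15.21 and 15.85 in C1 (log2 difference -2.17). For miR-346 and miR-20a* the nearest arrays of the 2 fractions, replicate 3 of each, were almost level.

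The other 6 of the 12 lowest shared a shape with miR-875-3p and miR-770-3p: low on the 4 V1 arrays, intermediate on C1 replicates 1 to 3 and highest on C1 replicate 4. miR-707 had 10.59, 10.48, 11.08 and 10.43 in V1, against 12.12, 11.97, 12.77 and 14.73 in C1, a log2 difference of -2.25, or -1.64 without that array. miR-758, of the Dlk1-Dio3 cluster, had 10.08, 9.95, 10.23 and 9.78 in V1, against 12.31, 11.76, 10.88 and 14.44 in C1, a log2 difference of -2.34, or -1.64 without it. miR-411*:9.1, miR-466f-5p, let-7g* and miR-465a-5p had log2 differences of -2.47, -2.39, -2.01 and -1.98, and without it of -1.94, -1.63, -1.42 and -1.25. miR-883b-3p, let-7b* and miR-295*, with -1.90, -1.96 and -1.88, had the same shape and were at -1.34, -1.14 and -1.16 without it. miR-883b-3p was detected on 1 V1 array, its other V1 values being below detection.

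The 59 probes below C1 were mostly dim ones in V1, which in part follows from choosing them as lower there. Their median log2 normalized level was 10.03 in V1 and 11.69 in C1, against 11.53 and 11.54 over all 346. 15 of the 59 were star strands (25.4%, against 15.3% of the probes tested), none was a sequenced candidate, and 49 were detected on all 8 arrays.

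Clusters known mainly from embryo, placenta, testis or brain (the pluripotency, Dlk1-Dio3, X-linked and Sfmbt2 clusters) made up 22 of the 59 and 62 of the 346. The pluripotency clusters (miR-290 to miR-295 and miR-302 with miR-367, embryonic stem cell miRNAs) had 22 probes on the array, of which 7 were tested. All 7 had a lower mean in V1, 5 of them without overlap (17.1% of all tested probes lay below C1 in this way), at a median log2 difference of -1.06 (-0.90 without C1 replicate 4), against -0.01 over all tested probes. None passed the test. Of 72 probes of the Dlk1-Dio3 cluster, a maternally expressed imprinted region, 27 were tested, 24 with a lower mean and 3 with a higher one, at a median of -0.96 (-0.73 without C1 replicate 4). 8 of the 27 lay below C1 without overlap and 2, miR-770-5p and miR-665, above it, where the shares over all tested probes were 17.1% and 5.20%. Of 26 probes of the X-linked miR-465 to miR-883 cluster, known from testis, 10 were tested and 9 had a lower mean, 4 of them without overlap (against the same 17.1%), at a median of -0.96, or -0.83 without that array. Members named here are miR-465a-5p and miR-883b-3p, above, and miR-871 with -1.10. The Sfmbt2 cluster was divided, with 18 of its 43 probes tested, 7 with a higher mean and 11 with a lower one. Its members are close in sequence, so a probe's signal may come from more than 1 of them. These directions turned in the signal before normalization, where 6 of the 7 pluripotency probes, 21 of the 27 Dlk1-Dio3 probes and 8 of the 10 X-linked probes had a higher mean in V1, at medians of 0.52, 0.53 and 0.44 against 1.05 over all tested probes. There miR-302b had 0.33 and miR-871 0.46. With the number of detected probes in the model the 3 medians were -0.10, -0.01 and -0.19.

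**Figure D3:**
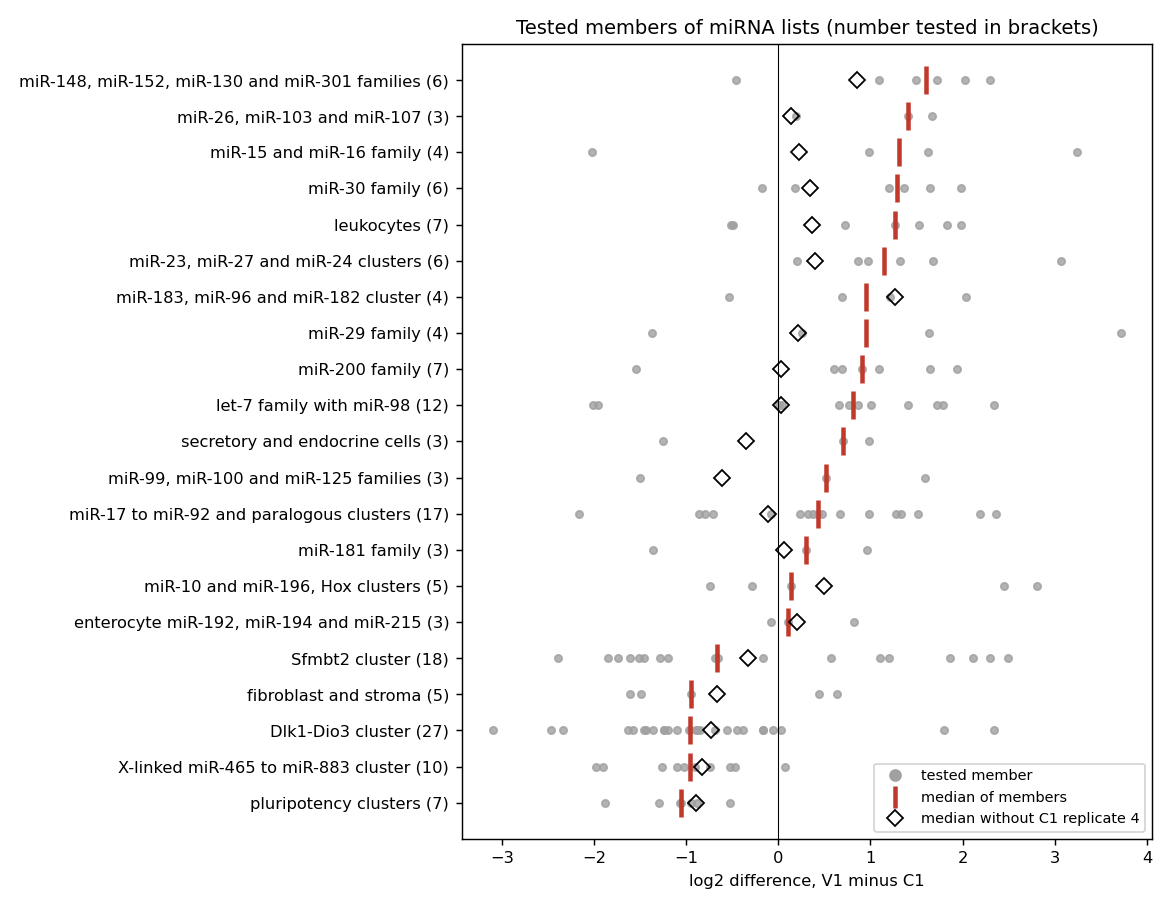
Log2 difference of V1 minus C1 (horizontal axis) of each tested probe (grey points) in lists with 3 or more tested members, with the median over all 8 arrays (red bar) and without C1 replicate 4 (open diamond). The medians of the let-7 and miR-200 families move to 0.03 without that array, while those of the pluripotency, X-linked and Dlk1-Dio3 clusters stay below -0.7.

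The large families of epithelial and differentiation miRNAs were higher on average in V1 in most members, and most of that rested on 1 array. No list member other than miR-22 and miR-378* was called. Of 12 tested let-7 probes, 10 had a higher mean in V1, at a median log2 difference of 0.81, and without C1 replicate 4 the median was 0.03. With the number of detected probes in the model the medians of the let-7, miR-29 and miR-30 families were -0.31, -0.38 and -0.32. The log2 normalized signal of let-7g was 15.65, 15.64, 15.72 and 15.66 in V1, against 15.71, 15.65, 15.30 and 9.14 in C1, so that 7 arrays were level and C1 replicate 4 was low. The level arrays were near the top of the scale (15.91), and whether the signal was saturated there was not tested. The pattern was the same for let-7b, which had 15.80, 15.85, 15.66 and 15.72 in V1, against 15.74, 15.77, 15.65 and 10.25 in C1. In the miR-200 family 6 of 7 tested probes had a higher mean, at a median of 0.91, or 0.03 without that array. miR-429 had 15.62, 15.65, 14.44 and 15.46 in V1, against 15.16, 14.32, 14.05 and 9.88 in C1 (log2 difference 1.94, or 0.78 without it).

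The miR-30 family had 5 of 6 tested probes with a higher mean (median 1.28, or 0.34 without C1 replicate 4), miR-30d with a log2 difference of 1.36. The miR-29 family had 3 of 4 (median 0.95, or 0.21), with miR-29a* on the other side at -1.37 and miR-29b* not tested, being detected on 3 V1 arrays and no C1 array (at least 1.94-fold higher in V1). In the miR-23, miR-27 and miR-24 clusters all 6 tested probes had a higher mean (median 1.15, or 0.40). miR-24 had 15.36, 15.38, 14.80 and 15.19 in V1, against 12.21, 15.06, 15.00 and 13.17 in C1 (log2 difference 1.32, limma adjusted p = 0.175). miR-23a, of the same list, had a log2 difference of 3.07, with C1 split between 9.18 and 14.76. Splits of this kind within C1, with replicates 1 and 4 low and replicates 2 and 3 high, were also seen for miR-10a, a miRNA of the Hox gene clusters (9.30, 14.02, 14.71 and 9.59 in C1, log2 difference 2.80), and for miR-15b* (8.82, 13.57, 11.93 and 9.04 in C1, log2 difference 3.24). miR-10b split differently, with replicates 2 and 4 low (log2 difference 2.45).

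The miR-26, miR-103 and miR-107 group, known from metabolism, had 3 of 3 tested probes with a higher mean. Its median of 1.41 was 0.14 without C1 replicate 4, with miR-26b at 1.41 and miR-103 at 1.67 over all arrays. The miR-148, miR-152, miR-130 and miR-301 families kept more of their difference, with 5 of 6 probes higher on average, at a median of 1.61 and 0.85 without that array, and miR-130b and miR-130b* at 2.30 and 2.03. The miR-183, miR-96 and miR-182 cluster, which sensory and epithelial cells express, had a median of 0.95, and 1.27 without that array. Its members miR-183 and miR-182 had log2 differences of 2.04 and 1.21, with overlapping arrays for both, and miR-183 was called with slide as a fixed block (4.01, limma adjusted p = 0.00238).

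The proliferation-associated miR-17 to miR-92 cluster and its paralogs did not stand together. Of 17 tested probes 12 had a higher mean and 5 a lower one, at a median of 0.43, or -0.11 without C1 replicate 4. 1 lay below C1 without overlap (miR-20a*) and none above, where the shares over all tested probes were 17.1% and 5.20%. miR-20b had 12.26, 13.47, 13.24 and 13.76 in V1, against 10.80, 10.32, 9.75 and 12.41 in C1 (log2 difference 2.36, limma adjusted p = 0.148), and miR-17* had a log2 difference of 2.19. With slide as a fixed block miR-20b had 4.76 and was called (limma adjusted p = 0.00221). Among growth-associated miRNAs, miR-221, which represses the cell cycle inhibitor p27, had 11.52, 10.99, 8.98 and 10.58 in V1, against 12.99, 13.91, 11.45 and 15.34 in C1. Its log2 difference was -2.90 (limma adjusted p = 0.159), the arrays overlapping by V1 replicate 1 and C1 replicate 3, and -2.26 without C1 replicate 4. The p53-induced miR-34 family had 2 of its 8 probes tested, miR-34a with -0.83 and miR-34b-5p with -1.06. Of the miR-181 family, miR-181b had 0.96 and miR-181a-2* -1.35, and of the miR-99, miR-100 and miR-125 families, miR-125a-5p had 1.59 (0.39 without C1 replicate 4) and miR-125b* had -1.50.

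Markers of cells other than enterocytes were measured beside these. The fibroblast and stroma miRNAs (miR-199a, miR-199b and miR-214) had a summed normalized signal of 19836 to 42617 units in V1 and 44424 to 100250 units in C1, without overlap, the only list of other cell types that separated in that direction. Of the 5 tested probes 3 had a lower mean and 2 a higher one, at a median log2 difference of -0.95, or -0.66 without C1 replicate 4, with miR-199a-3p:9.1 at 13.15, 12.66, 13.29 and 11.63 in V1 against 15.19, 14.95, 13.44 and 13.57 in C1 (log2 difference -1.60, limma adjusted p = 0.195). The probe shared by miR-199a-3p and miR-199b had -0.95, miR-199a-5p had -1.49, miR-214 had 0.64 and miR-199b* had 0.44. Both probes named for miR-199a-3p enter the summed signal, at mean log2 levels of 14.29 and 14.85 in C1, so that this miRNA is counted there in 2 probes. The smooth muscle and mesenchyme miRNAs, miR-143 and miR-145, overlapped, with summed signals of 50839 to 72274 units in V1 and 37524 to 73075 units in C1 and log2 differences of 1.28 and -0.01. Leukocyte miRNAs had 52094 to 155073 units in V1 and 17162 to 116359 units in C1, with miR-142-5p at a log2 difference of 1.98 and miR-146b* at -0.49. Of the 7 tested leukocyte probes 5 had a higher mean and 2 a lower one, at a median of 1.27, or 0.37 without C1 replicate 4. Neuron markers other than miR-128 were not tested, and their summed signal, miR-128 included, was 5922 to 15928 units in V1 and 3419 to 4068 units in C1. Striated muscle (miR-133a -0.11, miR-133a* -0.40), endothelium (miR-126-3p 0.56, miR-126-5p -0.09), red cell (miR-451 0.74, miR-144:9.1 -1.20) and secretory cell lists (miR-7a 0.71, miR-7a* -1.25) overlapped between fractions in summed signal. Of the 3 tested secretory cell probes 2 had a higher mean and 1 a lower one, at a median of 0.71, or -0.35 without C1 replicate 4. The part of any of these cell types in the differences was not tested.

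The 2 strands of a hairpin come from 1 transcript, and for 55 hairpins both were tested. In 32 of them the strands had the same sign of V1 minus C1 and in 23 the opposite one, in 19 of those with the strand named first higher and the other lower. Without C1 replicate 4 the opposite sign was seen in 20, of which 13 were among the 23, and the median gap between strands was 0.86, against 1.33 with all arrays. miR-770 had the widest gap in measured values with and without that array, although each strand was detected on only 2 arrays of its lower fraction. The log2 normalized signal of miR-770-5p was 10.88, 10.96, 13.21 and 12.21 in V1, against 9.73, 9.90, 9.18 and 9.08 in C1 (log2 difference 2.34, limma adjusted p = 0.148), while miR-770-3p, given above, had -3.09. Neither strand overlapped between fractions and neither passed the test (with slide as a fixed block miR-770-5p did, limma adjusted p = 0.0141), and without C1 replicate 4 the differences were 2.21 and -2.69. The gaps of let-7g (1.72 and -2.01) and let-7b (1.41 and -1.96) narrowed to 0.12 and -1.42, and to 0.04 and -1.14, without it. The strands of miR-31 differed by 0.21 with all arrays and by 1.48 without it.

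**Figure D4:**
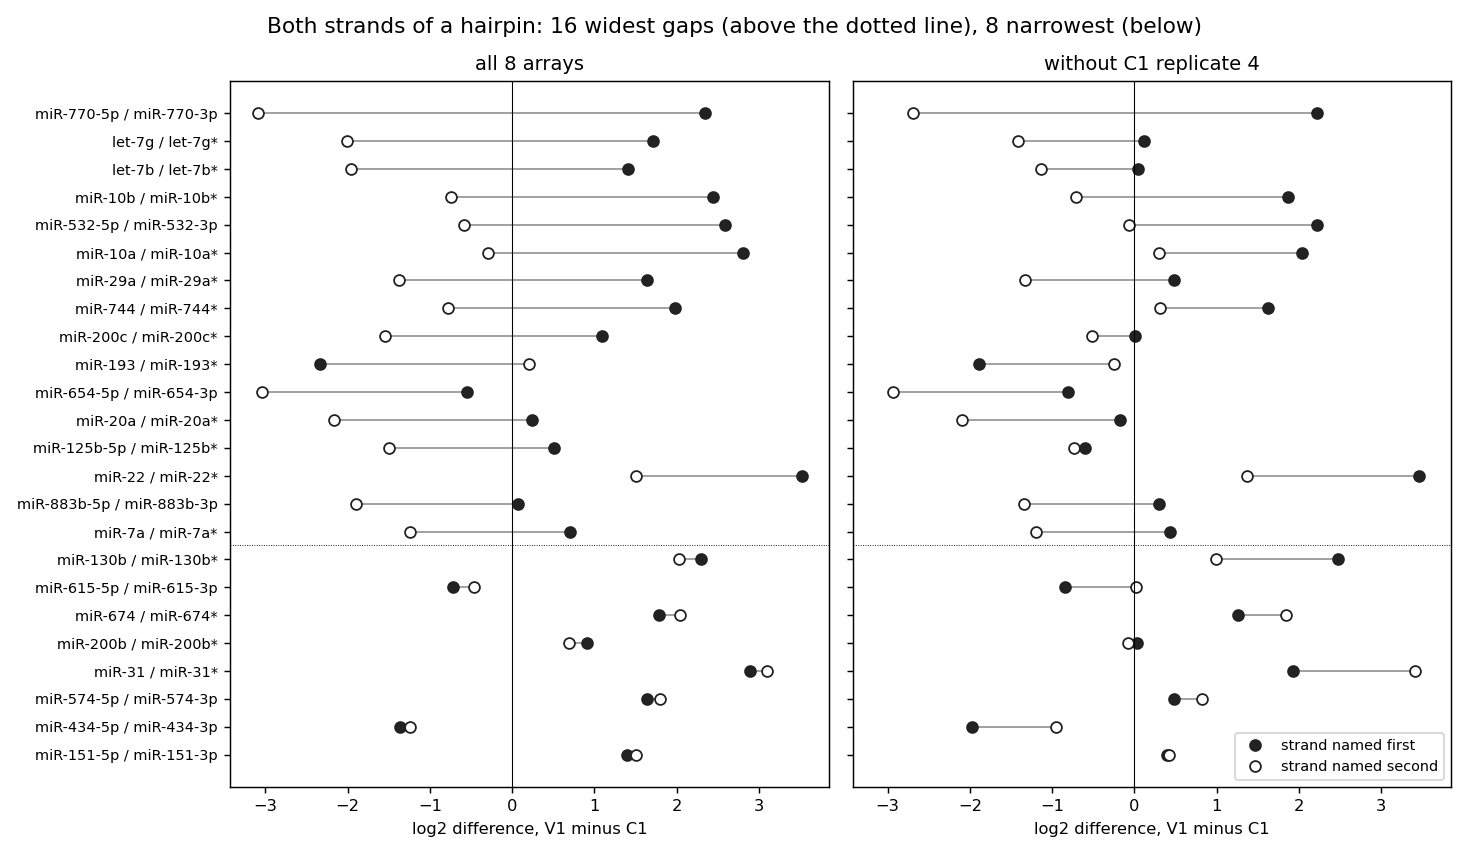
Log2 difference of V1 minus C1 (horizontal axis) for the strand named first (filled) and second (open) of the 16 hairpins with the widest gap and the 8 with the narrowest, from all 8 arrays (left) and without C1 replicate 4 (right). miR-770 keeps its gap (2.34 and -3.09 on the left, 2.21 and -2.69 on the right), while that of miR-200c narrows.

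The study selected 9 miRNAs for follow-up from V0 against C1, a comparison without V1. For those selected as higher on the villus, the study also reported a rise from crypt to villus by quantitative PCR. In V1 against C1, miR-22 was called by the probe of that name and the other selected miRNAs were not. miR-378*, the minor strand of the selected miR-378, was called, as given above. Since the C1 arrays used here also served to choose the list, it is no independent evidence of direction. let-7e had 13.38, 13.85, 11.38 and 11.87 in V1, against 13.29, 12.72, 9.60 and 10.82 in C1, and its arrays overlapped (log2 difference 1.01, limma adjusted p = 0.485). miR-7b and miR-486, each detected on 3 arrays of either fraction, were not tested, with log2 differences of 1.83 and 0.47. The probe named miR-199b* had 0.44, with V1 replicate 3 at 13.31 and the other V1 arrays at 9.49 to 10.23. Of those selected as lower on the villus, miR-302b had 9.43, 9.36, 10.01 and 9.74 in V1, against 11.06, 11.04, 10.32 and 10.35 in C1, every V1 array below C1 (log2 difference -1.06, limma adjusted p = 0.202). miR-335-5p had 10.89, 11.12, 11.16 and 11.47 in V1, against 12.23, 11.87, 11.47 and 11.87 in C1, V1 replicate 4 and C1 replicate 3 being level (log2 difference -0.70, limma adjusted p = 0.293). Their partner probes miR-302b* and miR-335-3p were not tested, miR-302b* being detected on no V1 array and miR-335-3p on 1.

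V1 was also set against its neighbours on the axis. Limma called 0 of 356 probes between V1 and V0 and 0 of 342 between V1 and V2, with smallest adjusted p of 0.518 and 0.9998. At an unadjusted p under 0.05, limma gave 13 probes between V1 and V0 (3.65%), 3 higher (0.843%) and 10 lower (2.81%) in V1, and 2 between V1 and V2 (0.585%), both higher in V1. A p that misses the threshold does not show that the fractions were alike. Among named probes, the log2 difference of V1 minus V0 was -2.63 for miR-133a, -2.58 for miR-486, -2.08 for miR-199b* and -1.89 for miR-199a-3p:9.1, each lower in V1. miR-665 went the other way, with 1.48 against V0 and 1.44 against V2. It was detected on 4 V1 arrays, 1 V0 array and 2 V2 arrays. From crypt to tip, the log2 normalized signal of miR-22 was 11.01 ± 0.31 for C1, 13.45 ± 0.62 for V3, 14.18 ± 0.31 for V2, 14.53 ± 0.02 for V1 and 13.73 ± 1.16 for V0 (SD, n = 4 each), so that its V1 level differed from V0 by 0.80 (SE 0.48) and from V2 by 0.35 (SE 0.48). That of miR-378* was 10.00 ± 0.43 for C1, 11.98 ± 1.53 for V3, 12.88 ± 0.44 for V2, 13.06 ± 0.70 for V1 and 12.58 ± 0.86 for V0 (SD, n = 4 each). Both had their lowest mean in C1 and their highest in V1. miR-763 ran the other way, with 13.38 ± 1.40 for C1, 11.72 ± 2.22 for V3, 10.20 ± 1.36 for V2, 9.81 ± 0.98 for V1 and 10.53 ± 2.20 for V0 (SD, n = 4 each).

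**Figure D5:**
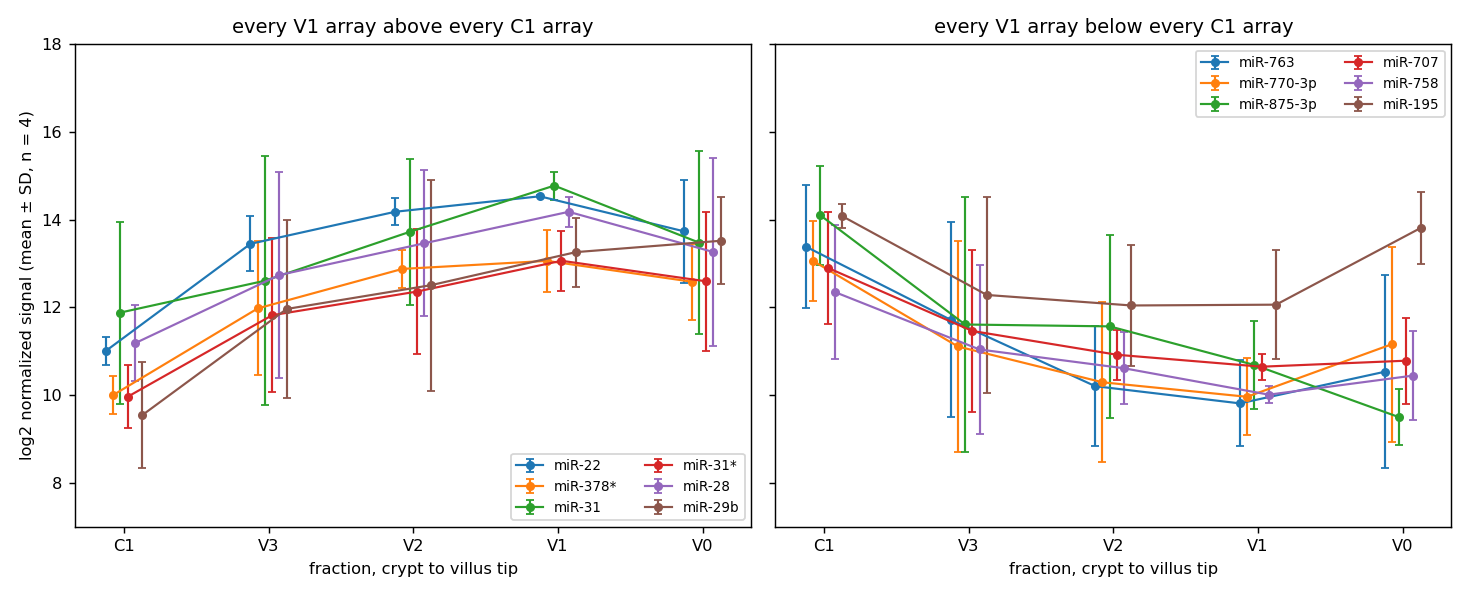
Log2 normalized signal (mean ± SD, n = 4 arrays per fraction) along the axis from C1 to V0 for 6 miRNAs whose V1 arrays were above C1 (left) and 6 whose V1 arrays were below (right). miR-22 is highest in V1 at 14.53 with an SD of 0.02, and miR-195 has its highest means at both ends of the axis, in C1 and V0.

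The V0 and V3 arrays are outside the comparison and are given as a description. They share its slides, since replicates 1 and 2 of V1 and V0 lay on slide 1 and those of C1 and V3 on slide 3, so that both differences hold the difference between these slides. Of the 18 miRNAs above C1, V0 had the higher mean of the pair in 13, and of the 59 below, V0 had the lower one in 50, where 149 of the 346 were higher and 197 lower in V0. miR-29b had a log2 difference (V0 minus V3) of 1.55 and miR-875-3p one of -2.11. The order was the opposite for miR-466g, at -2.11, and miR-195, at 1.53. Across the 346 probes the V1 minus C1 and V0 minus V3 differences had a Spearman correlation of 0.405 and a Pearson correlation of 0.343, over probes that share arrays and normalization and are not independent. On slide 2 alone, with 2 arrays of V0 and 2 of V3, V0 had the higher mean in 16 of the 18 and the lower one in 55 of the 59, where 157 of the 346 were higher and 189 lower, and the correlations were 0.706 and 0.687. The V0 arrays of that slide had 466 and 449 detected probes before normalization and the V3 arrays 384 and 258, and the part of depth was not tested.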

How the data were processed

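Of the 20 deposited arrays, 8 enter the comparison and all 20 enter the fit. The authors scanned Illumina miRNA bead arrays and exported the average signal intensity of each probe from Genome Studio (version not stated in the sources read), before and after quantile normalization across arrays, with no background subtraction. The deposited detection p-values score each probe's signal against negative control beads. The series' own value table held the same values. No genome build was stated for the array, and positions are those of RefSeq.

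The deposited normalized intensity was converted to log2. In limma 3.58.1 (R 4.3.3), lmFit and eBayes were run with a mean for each fraction, and V1 was contrasted with C1, V0 and V2. P-values were adjusted by Benjamini-Hochberg over the probes detected (p at most 0.01) throughout either fraction. A call required 0.05 or less after adjustment together with a 2-fold difference. The paired rank test of the study's methods was not run, since no label ties arrays to mice. A lower bound of a fold set the V1 mean against the C1 mean of, per array, the higher of the lowest detected signal and the probe's own. Checked on simulated data, the fit returned the simulated differences without a consistent offset and called large changes far more often than small ones. The simulated noise was independent and of equal spread on every array. No slide effect, depth difference or outlying array was simulated, so the check does not cover those features. With arrays, their number limits the precision.

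The fractions compared, the lists of miRNAs and the naming rule were chosen with earlier results of these data known. Named were every called probe, the 12 highest and the 12 lowest differences among miRNAs whose arrays did not overlap, the 2 members of each list with the smallest unadjusted p, and the 9 miRNAs the study selected. let-7b, let-7g, miR-151-5p, miR-192, miR-199a-5p, miR-200c, miR-214 and miR-331-3p fall outside that rule and were chosen after their values were seen. Alternatives changed the normalization, background, detection filter, slide, samples fitted, spread model, test and number of detected probes, or left out single arrays. Leaving out arrays with detection judged anew, leaving out C1 replicates 2 and 4 together, and V0 against V3 on slide 2 alone were added after seeing the data. Figures used matplotlib 3.10.9.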

Additional observations from a re-analysis of the deposited data

Results flagged for a closer look

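Among 166 groups of 4 arrays, 29 had 1 array far from the other 3, where chance gives about 1 in 20. 9 of the 29 were on C1 replicate 4 and 9 on V1 replicate 3. On C1 replicate 4 the log2 normalized signal was 8.85 for miR-21, 8.52 for miR-125a-5p, 10.11 for miR-26b, 9.77 for miR-378 and 9.0 for miR-425, each below the other C1 arrays. It was 15.78 for miR-875-3p, 14.48 for miR-200c*, 13.10 for miR-125b* and 11.70 for miR-17* on that array, each above the other C1 arrays. V1 replicate 3 had the lowest V1 signal for miR-28 (13.66), miR-31* (12.04), miR-429 (14.44), miR-182 (12.01), miR-7b (9.28), miR-21 (15.80) and miR-215 (15.90), the last 2 within a range of under 0.2. It had the highest for miR-34a (12.29) and miR-302b* (9.08).

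C1 replicate 3 had the highest C1 signal for miR-29b (11.35), miR-34a (13.08) and miR-133a (11.97) and the lowest for miR-346 (15.40). C1 replicate 1 had the highest for miR-7b (13.19) and C1 replicate 2 for miR-22* (12.17). In V1, replicate 1 was lowest for miR-425 (14.73) and miR-145 (14.82), replicate 2 highest for miR-335-3p (9.62), and replicate 4 lowest for miR-871 (9.48) and for the probe shared by miR-199a-3p and miR-199b (13.19).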

How the results depend on the processing

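miR-22 was called under 29 of the 31 alternatives tried (not on slide 2 alone, nor by the exact rank-sum test) and miR-378* under 17 of 30, with limma or rank-sum adjusted p of 0.000104 to 0.429 for miR-22 and 0.00239 to 0.429 for miR-378*. The count of miRNAs called between V1 and C1, 2 as reported and both higher, was 1 with the signal before normalization, 1 with detection required on all 8 arrays and 1 with each array's detected-probe number as covariate, each higher in V1. It was 9 with slide as a fixed block, where C1 replicate 4, alone on its slide, adds nothing to the difference. All 9 were higher, among them miR-20b, miR-183, miR-98, miR-770-5p, miR-130b* and miR-665. With only these 2 fractions fitted the count was 12. Of these, 9 were higher, among them miR-29b, miR-31*, miR-28, miR-128 and miR-466g. The 3 lower ones were miR-763, miR-875-3p and miR-770-3p. Slide 2 alone gave 0 (limma, 17 at an unadjusted p under 0.05), and the exact rank-sum test, whose smallest two-sided p with 4 arrays each is 0.0286, also gave 0 (77 unadjusted). An intensity trend gave 3. Leaving out 1 array at a time gave 1 to 4 called, 1 to 3 of them higher and 0 to 1 lower. Without V1 replicate 3, V1 replicate 4, C1 replicate 3 or C1 replicate 4 only miR-22 was called, and without C1 replicate 1 there were 4. Between V1 and V0 leaving out 1 array gave 0 to 3, namely 3 without V0 replicate 1 and with detection judged anew, 1 without V1 replicate 3 and otherwise 0. The cause of these changes was not tested.

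Of 77 tested probes that are named, 51 kept the sign of their difference under every alternative in which they were fitted. Before normalization, where the median over the tested probes was 1.05, the log2 difference was reversed for 14: miR-126-5p (1.55), miR-335-5p (1.04), miR-133a (0.95), miR-133a* (0.72), miR-145 (0.53), miR-146b* (0.50), miR-871 (0.46), miR-144:9.1 (0.40), miR-181a-2* (0.37), miR-34a (0.36), miR-302b (0.33), miR-34b-5p (0.21), miR-29a* (0.066) and miR-125b* (0.0051). With arrays centred on their median it was reversed for miR-126-5p (0.59), miR-335-5p (0.073) and miR-194 (-0.37). With that covariate it was reversed for miR-133a (0.59), miR-378 (-0.58), miR-125a-5p (-0.55), miR-181b (-0.45), miR-143 (-0.42), let-7e (-0.27) and miR-103 (-0.15). With slide as a fixed block it was reversed for miR-145 (0.68), miR-126-5p (0.058), miR-451 (-0.39) and miR-126-3p (-0.24), and as a random block for miR-145 (0.27). On slide 2 alone it was reversed for miR-126-5p (0.52), miR-142-5p (-0.95), miR-143 (-0.049), miR-451 (-0.031) and miR-24 (-0.00642). Leaving out arrays moved miR-199b* over -0.42 to 0.85, miR-194 over -0.18 to 0.36, miR-145 over -0.19 to 0.13, miR-126-5p over -0.52 to 0.49 and miR-133a over -0.31 to 0.38. Without C1 replicates 2 and 4 together, miR-126-5p had 1.03 and miR-133a -0.64.

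No paired analysis was possible because the labels carry no replicate number and tie no array to a mouse, the numbers used here being names in the order of deposition. V1 and C1 share 1 slide only, with 3 arrays of the comparison on it, and the C1 arrays had fewer probes above background, which limits what can be said of dim probes.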
